A study of Mus musculus with 8 samples.

Results

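YAP and TAZ, encoded by Yap1 and Wwtr1, are transcriptional co-activators that have no DNA-binding domain of their own and act through the TEAD factors, encoded by Tead1 to Tead4. The Hippo kinases LATS1 and LATS2 phosphorylate both co-activators and hold them in the cytoplasm, and several YAP/TAZ target genes encode proteins that feed back on this step. In the mouse intestine YAP is known for its role in regeneration after injury. The 10 genes described here were taken by symbol: the co-activators Yap1 and Wwtr1, the 4 TEAD genes, the targets Ankrd1, Amotl2 and Lats2, and Ajuba, whose protein binds and restrains LATS kinases. Each of the 10 was found among the 43629 genes of the count table, and all 10 were among the 17029 genes that passed the low-count filter. Ankrd1 passed that filter through the tumor libraries alone, so it had to differ, and counts over the 10 genes are given as description.

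The groups were 4 tumor libraries and 4 small intestine libraries of polyadenylated RNA from mice labelled as APC mutant, of strain C57B6/129 and with no treatment. The sources used here give neither the Apc allele, nor the age, nor the number of animals, and both groups carry the mutation. The title concerns high-fructose corn syrup, which no library is labelled as having received. The labels do not say whether each library is a different animal, and the p-values below reflect just the scatter among these libraries, possibly technical.

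Library totals were 53856561 to 67371180 counts for tumor, against 62347648 to 84433335 counts for small intestine. Values below are counts scaled to library size (CPM) and corrected by the trimmed mean of M values (TMM), and with library totals alone the median log2 fold change of all genes moved up by 0.863. Of the enterocyte markers, 10 of 10 fell, against 35.4% of all genes tested. Their summed level was 419 to 771 CPM in tumor and 57327 to 70610 CPM in small intestine. In bulk samples such as these, fewer cells of a type and less RNA per cell cannot be told apart.

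Most of the YAP/TAZ/TEAD genes were higher in tumor, and the factors that rose most were those nearly absent from small intestine. By edgeR (quasi-likelihood, p-values Benjamini-Hochberg adjusted over all genes), 9 of the 10 were called at an adjusted p under 0.05, against 74.3% of all genes tested. Higher in tumor were 7 (Yap1, Wwtr1, Tead1, Tead2, Tead4, Ankrd1 and Ajuba), against 38.9% of all genes. Each of the 7 was at least 2-fold higher in the fit, against 27.9% of all genes, and 4 were at least 16-fold higher, against 6.53%. Tead3 and Lats2 were lower, against 35.4% of all genes, and Amotl2 was not called. The groups did not overlap for 8 of the 10, against 70.5% of all genes, and 7 of these were higher in tumor, against 37.5%. In the FPKM table, where Ankrd1 was too low to be tested, limma called 8 of the 9 others and all 8 were higher, against 82.7% of genes called in either direction and 64.6% called higher. The median log2 fold change was 2.32 over the 10 genes and 0.07 over all genes tested.

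**Figure D1:**
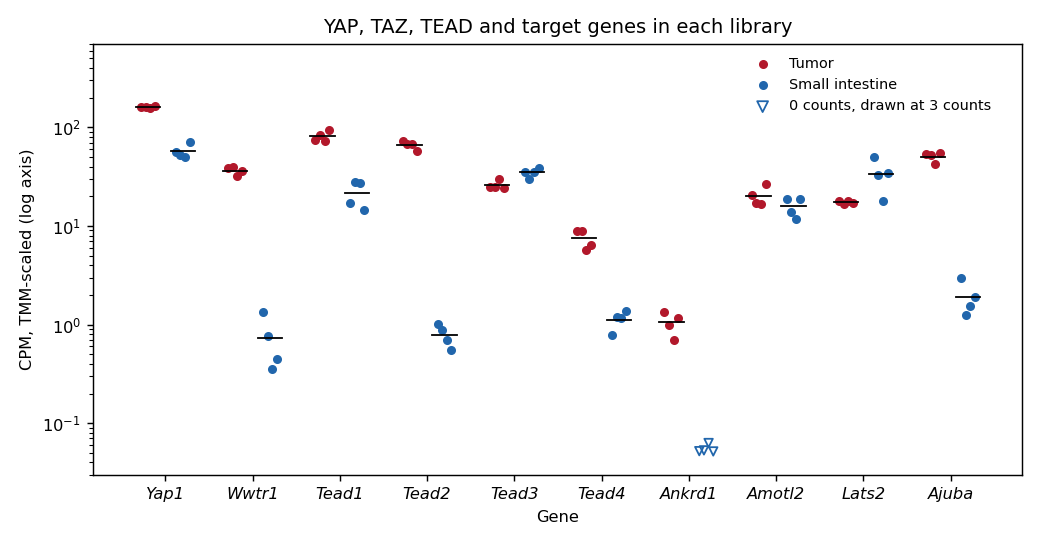
TMM-scaled CPM (log axis) of each of the 10 genes in each tumor library (red, left of each pair) and each small intestine library (blue); points are libraries, black lines are group means, and open triangles mark libraries with 0 counts, drawn at the level of 3 counts. Wwtr1, Tead2 and Ajuba stand at 31.9 to 73.5 CPM in tumor and at 0.357 to 2.97 CPM in small intestine, while the groups overlap for Amotl2 and Lats2.

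Both co-activator genes rose, Wwtr1 by the larger fitted fold. Yap1 (ENSMUSG00000053110, GRCm38 chromosome 9 from 7931999 to 8004596) was at 161, 159.6, 159 and 165 CPM in tumor, against 56.2, 53.0, 49.9 and 71.6 CPM in small intestine. The tumor libraries lay within a narrow band, with a coefficient of variation of 1.79% against 16.7% in small intestine, and the groups did not overlap. The log2 fold change of Yap1 was 1.48 ± 0.12 (SE; edgeR quasi-likelihood adjusted p = 3.61e-06). Wwtr1 (ENSMUSG00000027803, chromosome 3 from 57455649 to 57575910) was at 38.4, 39.6, 31.9 and 35.8 CPM in tumor, against 1.34, 0.760, 0.357 and 0.449 CPM in small intestine. Those small intestine values rest on 17 to 77 counts a library. Every tumor library was above every small intestine library, and the log2 fold change was 5.64 ± 0.38 (SE; edgeR quasi-likelihood adjusted p = 1.26e-06), about 49.7-fold.

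The balance of the 2 co-activators can be read within each library, where the scaling between tissues has no part. In FPKM, which is per length and so allows genes to be compared, Yap1 exceeded Wwtr1 4.30-, 4.16-, 5.09- and 4.63-fold in tumor, against 42.9-, 64.6-, 112- and 132-fold in small intestine. Wwtr1 made up 18.1 ± 1.31% of the summed Yap1 and Wwtr1 FPKM in tumor and 1.36 ± 0.700% in small intestine (SD, n = 4 each). Yap1 was the higher of the 2 in each of the 8 libraries, and the ranges of the ratio did not meet.

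The TEAD genes, which encode the DNA-binding partners of both co-activators, changed in composition. Tead2 (ENSMUSG00000030796, chromosome 7 from 45215753 to 45233644) was at 73.5, 67.5, 67.7 and 57.7 CPM in tumor, against 1.02, 0.884, 0.693 and 0.552 CPM in small intestine. It had the largest change of the 4, with a log2 fold change of 6.39 ± 0.20 (SE; edgeR quasi-likelihood adjusted p = 3.04e-08), about 84.1-fold, and the lowest tumor library was far above the highest small intestine library. In small intestine its values rest on 32 to 59 counts a library, and its exons share 13 bases with Cd37 on the opposite strand, which had 1054 to 4091 counts there. Without a known strand setting, reads in those bases cannot be assigned.

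Tead1 (ENSMUSG00000055320, chromosome 7 from 112679318 to 112906807) was at 74.9, 83.7, 73.0 and 93.8 CPM in tumor, against 17.2, 28.0, 27.2 and 14.6 CPM in small intestine. Its groups did not overlap, and small intestine libraries 2 and 3 were higher than 1 and 4. The log2 fold change was 1.90 ± 0.22 (SE; edgeR adjusted p = 3.56e-05). Tead4 (ENSMUSG00000030353, chromosome 6 from 128224288 to 128300823) was at 8.97, 8.94, 5.77 and 6.36 CPM in tumor, against 0.781, 1.20, 1.15 and 1.36 CPM in small intestine. It rose by 2.74 ± 0.26 on the log2 scale (edgeR adjusted p = 1.06e-05), with tumor libraries 1 and 2 above 3 and 4.

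Tead3 (ENSMUSG00000002249, chromosome 17 from 28331671 to 28350817) was the TEAD gene that did not rise with TMM scaling. It was at 25.1, 24.6, 29.98 and 24.1 CPM in tumor, against 35.1, 30.1, 35.4 and 39.0 CPM in small intestine. The groups were only just separate, and the log2 fold change of -0.43 ± 0.11 (SE; edgeR adjusted p = 0.00654) lies within the shift between scalings. With library totals alone Tead3 turned to 0.44 (edgeR adjusted p = 0.00459), and in the FPKM table to 0.38 on the log2(FPKM + 1) scale (limma adjusted p = 0.00355).

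As shares of the summed TEAD FPKM, which do not depend on that scaling, the leading factor differed between the tissues. Tead2 held 63.0, 58.6, 58.5 and 53.9% in tumor, against 3.94, 3.06, 2.06 and 1.88% in small intestine. Tead3 held 14.9, 16.2, 19.9 and 16.3% in tumor, against 81.1, 72.0, 75.9 and 83.9% in small intestine. So Tead2 led in each tumor library and Tead3 in each small intestine library. Tead1 took 20.5 ± 3.82% in tumor and 16.5 ± 5.12% in small intestine (SD, n = 4 each), with overlapping groups. Tead4 took 4.19 ± 0.878% in tumor and 2.53 ± 0.407% in small intestine. With counts divided by exon length in place of FPKM, Tead2 held 53.7% in tumor and 2.28% in small intestine, and Tead3 14.97% in tumor and 71.4% in small intestine.

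**Figure D2:**
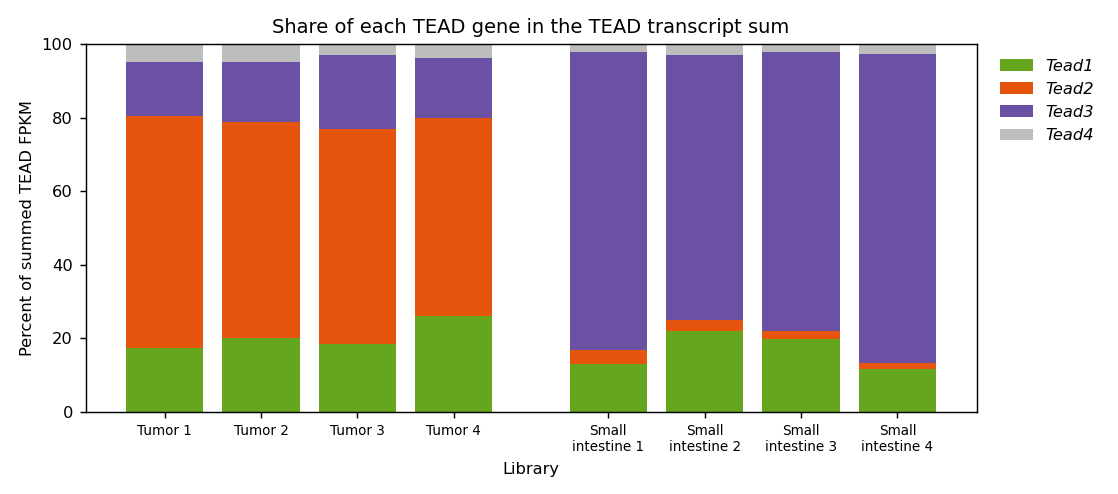
Share of the summed FPKM of Tead1 to Tead4 held by each gene (percent, stacked to 100) in each tumor library (left) and each small intestine library (right). Tead2 (orange) holds 53.9 to 63.0% in tumor and 1.88 to 3.94% in small intestine, and Tead3 (purple) 14.9 to 19.9% in tumor and 72.0 to 83.9% in small intestine.

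The summed levels of factors and co-activators were alike in size in both tissues. The 4 TEAD genes together were at 61.7 ± 3.66 FPKM in tumor and 9.88 ± 0.658 FPKM in small intestine, and Yap1 plus Wwtr1 at 61.1 ± 2.62 FPKM in tumor and 9.35 ± 1.12 FPKM in small intestine (SD, n = 4 each). The ratio of the TEAD sum to the co-activator sum was 0.911 to 1.08 in tumor and 0.837 to 1.30 in small intestine, so the groups overlapped. FPKM values were used as deposited, and the composition correction applied to the counts was not applied to them.

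The 3 targets did not move together. Ankrd1 (ENSMUSG00000024803, chromosome 19 from 36111961 to 36120099) encodes an ankyrin-repeat protein of the nucleus and of muscle sarcomeres that is much used as a YAP/TAZ readout. It had 123, 80, 50 and 104 counts in tumor, against 0 counts in each small intestine library. In CPM this was 1.36, 0.990, 0.699 and 1.17 in tumor, and against a floor of 3 counts per small intestine library (0.0550 CPM on average) it was at least 19.2-fold higher in tumor. The fitted log2 fold change of 9.19 depends on a prior count and is no bound (edgeR adjusted p = 3.7e-05). Ankrd1 was thus the lowest of the 10 genes in tumor even though its groups were fully apart.

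Amotl2 (ENSMUSG00000032531, chromosome 9 from 102716672 to 102733418) encodes an angiomotin-family junction protein that binds YAP. It was at 20.4, 17.0, 16.8 and 26.8 CPM in tumor, against 18.9, 13.9, 11.8 and 18.7 CPM in small intestine. The groups overlapped and the log2 fold change of 0.36 ± 0.20 (SE) was not called by edgeR (adjusted p = 0.141). With library totals alone it was called at 1.23 (edgeR adjusted p = 0.000534), and in the FPKM table at 0.87 (limma adjusted p = 0.00104). Across the alternatives for the counts its adjusted p ran from 0.000534 to 0.306.

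Lats2 (ENSMUSG00000021959, chromosome 14 from 57689662 to 57758388) encodes a kinase that phosphorylates YAP and TAZ and is itself a YAP/TAZ target. It was at 17.9, 16.7, 18.04 and 17.0 CPM in tumor, against 49.8, 32.7, 17.8 and 34.6 CPM in small intestine. Small intestine library 3 lay inside the tumor range and the other small intestine libraries lay above it. The log2 fold change was -0.95 ± 0.25 (SE; edgeR adjusted p = 0.0072), but with library totals alone it was -0.10 and not called (edgeR adjusted p = 0.751). In GENCODE M21 the exons of Lats2 share 2955 bases with Gm49361 on the same strand. Gm49361 is not among the genes of the count table, so it has no counts to set beside those of Lats2. Whether reads in the shared bases came from Lats2 or from Gm49361 is not known. Set against Yap1 within each library, Lats2 FPKM was 0.0719 to 0.0816 of Yap1 FPKM in tumor and 0.322 to 0.758 in small intestine. Amotl2 FPKM was 0.0914 to 0.135 of Yap1 FPKM in tumor and 0.223 to 0.361 in small intestine, so both feedback genes were lower relative to Yap1 in each tumor library. The other LATS kinase gene, Lats1, gave a Lats2 to Lats1 ratio in FPKM of 0.239 to 0.256 in tumor and 0.299 to 0.732 in small intestine.

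Ajuba (ENSMUSG00000022178, chromosome 14 from 54567472 to 54577558) encodes a LIM-domain scaffold that binds LATS kinases at cell junctions and restrains them. It was at 53.3, 52.2, 42.3 and 54.3 CPM in tumor, against 2.97, 1.24, 1.53 and 1.91 CPM in small intestine. Its groups did not overlap, and the log2 fold change was 4.72 ± 0.27 (SE; edgeR adjusted p = 4.69e-07), about 26.3-fold.

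TEAD factors bind the letters GGAATG, and upstream sequences that hold them are shown for Wwtr1, Ajuba, Ankrd1 and Yap1. On the other strand these letters read as CATTCC. RefSeq promoters (GRCm38.p6) matched 8 of the 10 genes, Tead1 and Tead4 being the others, and the 250 bases before each start were searched on both strands. GGAATG was found for 6 of the 8 (Yap1, Wwtr1, Tead3, Ankrd1, Amotl2 and Ajuba) in at least 1 promoter, against 14.4% of 27025 genes. Of these 6, Tead3 was lower in tumor with TMM and Amotl2 was not called, and their sequences are not shown. Tead2, which rose most of the TEAD genes, and Lats2 had no match in this window. The 250 bases before the start of Wwtr1 (chr3:57575911-57576160, minus strand) and of Ajuba (chr14:54577662-54577911, minus strand) read as follows, 5′ to 3′, with the TEAD letters of either strand in capitals.
Wwtr1: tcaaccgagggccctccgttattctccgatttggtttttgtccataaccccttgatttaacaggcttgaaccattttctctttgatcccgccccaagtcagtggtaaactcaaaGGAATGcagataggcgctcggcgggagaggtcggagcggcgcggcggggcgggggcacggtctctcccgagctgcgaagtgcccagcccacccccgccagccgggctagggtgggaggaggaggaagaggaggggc
Ajuba: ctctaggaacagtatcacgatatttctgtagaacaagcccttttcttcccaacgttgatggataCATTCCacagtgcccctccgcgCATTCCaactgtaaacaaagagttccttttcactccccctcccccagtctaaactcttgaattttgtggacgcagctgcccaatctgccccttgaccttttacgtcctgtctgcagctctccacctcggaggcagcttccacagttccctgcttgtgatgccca
In Ankrd1 the 2 matches begin 210 and 123 bases before the RefSeq start (chr19:36120037-36120066 and chr19:36119950-36119979, minus strand), and GENCODE M21 places an exon of a longer transcript there. In Yap1 the match begins 141 bases before the start (chr9:8004720-8004749, minus strand).
Ankrd1 first: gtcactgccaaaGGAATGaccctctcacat
Ankrd1 second: gacactaagtctGGAATGaaaattcacctg
Yap1: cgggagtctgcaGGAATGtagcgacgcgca
The letters of TCF/LEF factors, CTTTGAT, were found in Wwtr1 and Amotl2 (3.72% of genes). CTTTGAA, which differs from it in its last letter, was found in none of the 8 (5.19% of genes). The AP-1 letters TGANTCA were also found in none (7.82% of genes). No match overlapped a match of another motif. These matches describe letters and do not show binding.

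In tumor the order of the 10 genes by mean FPKM was Yap1 at 50.04, Tead2 at 36.2, Ajuba at 16.2, Tead1 at 12.6, Wwtr1 at 11.1, Tead3 at 10.3, Amotl2 at 5.38, Lats2 at 3.89, Tead4 at 2.60 and Ankrd1 at 0.625. Ajuba, Tead1, Wwtr1 and Tead3 overlapped their neighbours in that order, and the other neighbours were separate. In small intestine the order was Yap1 at 9.22, Tead3 at 7.72, Lats2 at 4.82, Amotl2 at 2.49, Tead1 at 1.65, Ajuba at 0.334, Tead2 at 0.270, Tead4 at 0.249 and Wwtr1 at 0.126, with Ankrd1 listed at 0. Lats2, Amotl2 and Tead1 overlapped there in turn, as did Ajuba, Tead2, Tead4 and Wwtr1. Yap1 came first in both tissues, and Tead2 stood second in tumor but seventh in small intestine.

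Of the 10 genes Tead3 was the one whose direction turned with the scaling. Library totals without composition correction gave log2 fold changes of 2.35 for Yap1, 6.48 for Wwtr1, 2.76 for Tead1, 7.25 for Tead2, 3.61 for Tead4 and 5.57 for Ajuba, each called by edgeR. On that scale 9 of the 10 were called higher, against 62% of all genes, and none lower, against 17.6%, while Lats2 at -0.10 was the gene not called.

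**Figure D3:**
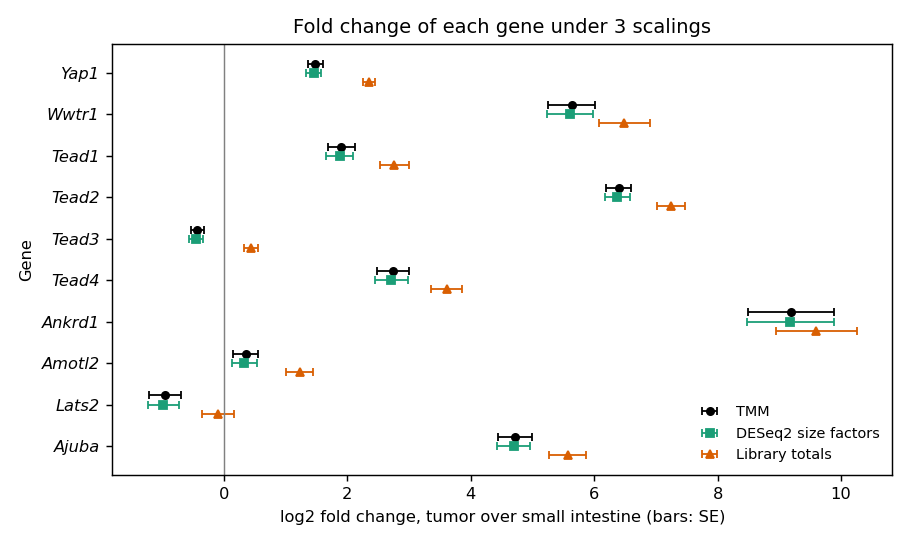
log2 fold change of tumor over small intestine for each of the 10 genes from edgeR with TMM (black circles), DESeq2 size factors (green squares) and library totals (orange triangles); bars are standard errors. Tead3 lies at -0.43 with TMM and at 0.44 with library totals, and Lats2 at -0.95 with TMM and at -0.10 with library totals, while the 7 genes that rose lie at 1.45 or more under each of the 3 scalings.

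Most fibroblast and endothelial markers were higher in tumor, as were 7 of the 10 genes. Of the fibroblast markers 8 of 9 rose, against 38.9% of all genes. Their summed level was 1277 to 1995 CPM in tumor and 36.4 to 78.8 CPM in small intestine. Endothelial markers rose in 9 of 9, against the same 38.9%. Their sum was 221 to 280.2 CPM in tumor and 13.3 to 33.4 CPM in small intestine. Pan-epithelial markers fell in 8 of 9, against 35.4% of all genes, and rose in 1. Their sum was 6492 to 9139 CPM in tumor and 21604 to 30125 CPM in small intestine. The pan-epithelial list includes Vil1, Krt20 and Cdx2, which are not general epithelial genes. These fell by 3.88, 3.19 and 2.32 on the log2 scale. The others ran from -2.43 (Cldn7) to 1.16 (Krt18), with Cdh1 at -0.43. In the FPKM table Cdh1 turned to 0.46 on the log2(FPKM + 1) scale (limma adjusted p = 0.00637). Epcam, at -0.40 there, was not called (limma adjusted p = 0.0679). The rest of this list was called in the same direction in FPKM as with TMM. No marker of these 3 lists was at 0 in either tissue.

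Per 100 CPM of the fibroblast sum, Wwtr1 was at 1.88 to 2.81 CPM in tumor and 0.980 to 1.70 CPM in small intestine, a log2 ratio of the means of 0.92 against 5.64 for Wwtr1 itself. Tead2 was at 3.68 to 4.52 CPM in tumor and 1.22 to 1.90 CPM in small intestine per 100 CPM of the same sum, and Ajuba overlapped at 2.50 to 4.25 CPM in tumor and 1.70 to 4.93 CPM in small intestine. Per 100 CPM of the endothelial sum, Wwtr1 was at 12.8 to 14.8 CPM in tumor and 2.69 to 4.002 CPM in small intestine. Ajuba did not overlap against that sum, at 19.1 to 20.3 CPM in tumor and 4.42 to 11.8 CPM in small intestine. Against the pan-epithelial sum Wwtr1, Tead2 and Ajuba were all higher in tumor, with log2 ratios of the means of 7.26, 8.05 and 6.37. Yap1 went the other way per fibroblast sum, at 8.05 to 12.9 CPM in tumor and 71.3 to 184 CPM in small intestine, and per 100 CPM of the pan-epithelial sum it was at 1.75 to 2.55 CPM in tumor and 0.177 to 0.260 CPM in small intestine. The part of stromal, endothelial or epithelial cells in the change of the co-activator and TEAD genes was not tested.

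Other cell types were checked as lists too. Smooth muscle markers rose in 6 of 9, macrophage markers in 9 of 9 and neutrophil markers in 6 of 6, against 38.9% of genes. Lymphocyte and plasma cell markers fell in 7 of 9 and rose in 1, against 35.4% lower and 38.9% higher among all genes. Of the mesothelial markers 2 of 5 were tested, with 1 higher and 1 lower, and of enteric glia and neuron markers 4 of 8, with 3 higher and 1 lower. Wt1 was at 0 in each tumor library and had 1, 0, 0 and 0 counts in small intestine. Sox10 was at 0 in each small intestine library and had 3, 1, 2 and 1 counts in tumor. Both were thus near 0 in both tissues and were not tested.

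The wider target list holds the 19 other genes of a YAP/TAZ target signature defined in human cancers, to which Ankrd1, Amotl2 and Lats2 also belong. Of the 19, 13 rose, against 38.9% of all genes, and 6 fell, a share near the 35.4% of all genes. Their median was 3.24 on the log2 scale beside 0.07 for all genes, and with library totals alone 13 rose and 4 fell, against 62% and 17.6% of all genes. Those that rose had log2 fold changes of 2.22 to 6.42, and those that fell of -3.36 to -0.83. Of the 13, Rbms3, Ccn2, Ccdc80, Fjx1 and Tgfb2 needed the tumor libraries to pass the low-count filter, which favored a rise in them. Per small intestine library Rbms3 had 9 to 36 counts, Ccn2 2 to 23 and Ccdc80 7 to 34. Rbms3, encoding an RNA-binding protein, was at 31.2, 34.3, 31.9 and 40.1 CPM in tumor, against 0.625, 0.478, 0.189 and 0.293 CPM in small intestine, which gave a log2 change of 6.42 ± 0.32 (edgeR adjusted p = 2.35e-07).

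Ccn2, a secreted matricellular protein gene and a classical YAP target, was at 14.8, 15.3, 10.3 and 20.7 CPM in tumor, against 0.313, 0.407, 0.336 and 0.0345 CPM in small intestine. Its log2 fold change was 5.81 ± 0.54 (edgeR adjusted p = 9.07e-06), with no overlap. Ccdc80, encoding a secreted matrix protein, rose by 4.64 ± 0.45 on the log2 scale. Nuak2, encoding a kinase of the AMPK-related family, went the other way at 19.2, 17.4, 17.5 and 22.6 CPM in tumor, against 124, 286, 124 and 254 CPM in small intestine, which gave a log2 change of -3.36 ± 0.31 (edgeR adjusted p = 8.16e-06).

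**Figure D4:**
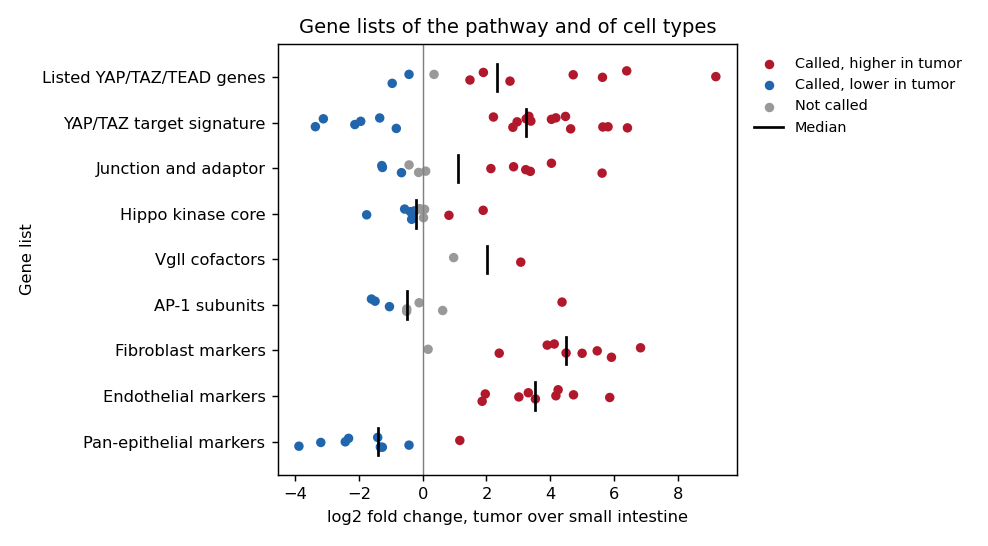
log2 fold change of tumor over small intestine (edgeR, TMM) for tested genes of each list; each point is a gene, red if called higher, blue if called lower and grey if not called, and black bars are list medians. The target signature holds 13 higher and 6 lower genes, the Hippo kinase core gathers round a median of -0.22, and fibroblast and endothelial markers have medians of 4.50 and 3.53.

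Of 13 members of the Hippo kinase core, which holds the MST, LATS1, TAO and MAP4K4 kinases with their adaptors and scaffolds, 2 rose, 5 fell and 6 were not called, their median being -0.22 on the log2 scale. Of all genes 38.9% rose and 35.4% fell, so the share that fell was near that of all genes. With library totals alone 12 rose and 1 fell, against 62% and 17.6% of all genes. Wwc1, encoding the scaffold KIBRA that promotes LATS activity, fell by 1.76 ± 0.18 on the log2 scale, at 77.8 to 89.6 CPM in tumor and 204 to 389.99 CPM in small intestine. Its relative Wwc2 rose by 1.90 ± 0.31, at 16.8 to 24.7 CPM in tumor and 2.69 to 8.30 CPM in small intestine. The kinase gene Map4k4 rose by 0.82 ± 0.12. Taok3, of the TAO kinase family, showed -0.56 ± 0.14 with TMM and turned to 0.31 with library totals alone, called both times by edgeR (adjusted p = 0.00471 and 0.0345).

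Of 12 junction and adaptor genes, 6 rose, 3 fell and 3 were not called, against 38.9% higher and 35.4% lower among all genes. With library totals alone 9 rose and 1 fell, against 62% and 17.6% of all genes. Amotl1, the angiomotin relative of Amotl2, was at 84.1, 89.3, 71.5 and 64.6 CPM in tumor, against 2.54, 1.66, 0.924 and 1.12 CPM in small intestine, which gave a log2 change of 5.62 ± 0.32 (edgeR adjusted p = 4.44e-07). Its groups were far apart, unlike those of Amotl2. Ptpn14, encoding a phosphatase that binds YAP and also in the target signature, rose by 4.04 ± 0.42, the FERM-domain gene Frmd6 by 3.37 ± 0.28 and the atypical cadherin gene Fat4 by 3.23 ± 0.56. Fat4, at 6 to 68 counts per small intestine library, and Dchs1, also among the 6, needed the tumor libraries to pass the low-count filter. Limd1, a LIM-domain gene of the Ajuba family, fell by 1.28 ± 0.09, at 90.0 to 96.2 CPM in tumor and 201 to 239 CPM in small intestine, and so moved against Ajuba.

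Among the Vgll cofactors, whose proteins bind TEAD at the surface that YAP uses, Vgll4 was at 127, 118, 122 and 113 CPM in tumor, against 15.9, 13.2, 17.95 and 9.87 CPM in small intestine. Its log2 fold change was 3.07 ± 0.18 (edgeR adjusted p = 5.06e-07), with no overlap. Vgll3 was not called with TMM but was with library totals alone, and Vgll1 and Vgll2 were too low to be tested. The AP-1 subunits, which are known in human cells to share enhancers with TEAD factors, had 1 of 8 higher, 3 lower and 4 not called, the share lower being near the 35.4% of all genes. With library totals alone 3 were higher and 1 lower, against 62% and 17.6% of all genes. Fosl1 was at 7.24, 16.2, 9.42 and 9.96 CPM in tumor, against 0.365, 0.460, 0.0840 and 1.14 CPM in small intestine, which gave a log2 change of 4.37 ± 0.62 (edgeR adjusted p = 0.000162). With 4 to 66 counts per small intestine library, Fosl1 needed the tumor libraries to pass the low-count filter. Jund fell by 1.61 ± 0.17 on the log2 scale, Fos by 1.49 ± 0.39 and Fosl2 by 1.04 ± 0.23, of which Fos and Fosl2 were not called with library totals alone (edgeR adjusted p = 0.154 and 0.470).

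Within a tissue several of the 10 genes had their lowest or highest level in the same library, while others did not. Tumor library 3 was the lowest tumor library for 7 of the 10 (Yap1, Wwtr1, Tead1, Tead4, Ankrd1, Amotl2 and Ajuba) and the highest for Tead3 and Lats2, against 27.6% and 27.8% of all tested genes. Small intestine library 1 was the highest of its group for 5 of the 9 genes with counts there (Wwtr1, Tead2, Amotl2, Lats2 and Ajuba), against 22.6% of all tested genes. The genes with the profile most like Yap1 over the 8 libraries, by the root mean square difference of centred log2 CPM, were Ipo7 (0.068) and 0610010F05Rik (0.097). Those most like Wwtr1 were Col4a1 (0.098), a collagen of basement membranes, and Amotl1 (0.149). Col4a1 and Amotl1 had log2 fold changes of 5.66 and 5.62, beside 5.64 for Wwtr1. The measure spans both tissues and rests largely on the change between them, so it does not show variation shared within a tissue.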

How the data were processed

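RNA of 4 tumor and 4 small intestine samples was sequenced, grouped by the tissue label and numbered by title. The authors deposited whole-number read counts per gene, which were not normalized. The authors also deposited FPKM per gene, a unit relative to library size and to gene length. The submitters' processing notes name FastQC, STAR, Cufflinks 2.2.1, HTSeq 0.6.0 and GRCm38. Their roles, settings, annotation release and strand setting were not given in the sources used here. Coordinates and exon lengths come from GENCODE M21 (GRCm38), and promoters from RefSeq (GRCm38.p6).

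The main test was edgeR 4.0.16 in R 4.3.3 (quasi-likelihood, TMM, filterByExpr, tissue as the only term), with Benjamini-Hochberg adjustment over all genes. For FPKM it was limma 3.58.1 on log2(FPKM + 1) of genes with a mean of 1 or more, which shrinks the change of low genes. Scripts were tested on simulated data. Where a library had 0 counts the floor was 3 counts (0.0331 to 0.0630 CPM). Reads carry no molecular identifiers, so this covers counting error only. Any 2 libraries of a group differed beyond sampling noise (chi-square of at least 38.9 per degree of freedom).

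The 10 genes and the lists were chosen with earlier results of these data known. From each pathway list the text names up to 4 called genes with the largest change at a mean of at least 1 CPM, plus the largest in the minority direction. For the target signature, 1 gene that this rule names is not reported here. Lats1, Vgll1, Vgll2, Vgll3, Fjx1, Tgfb2 and Dchs1 are outside this rule and were named after their values were seen. The same holds for the epithelial markers Vil1, Krt20, Cdx2, Cldn7, Krt18, Cdh1 and Epcam. Alternatives were other scalings, filters and pseudocounts, DESeq2 1.42.0, a fold of at least 2, a block for the replicate number, and leaving out single libraries.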

Additional observations from a re-analysis of the deposited data

Results flagged for a closer look

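Of 66 sets of 4 libraries examined, 2 held a library far from the rest of its group, and chance gives about 1 in 20. Tead3 had 29.98 CPM in tumor replicate 3, while the other tumor libraries had 24.1 to 25.1 CPM. Without that library its log2 fold change was -0.47 and still called by edgeR. Frmd6 had 15.7 CPM in tumor replicate 3, while the other tumor libraries had 21.01 to 21.07 CPM.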

How the results depend on the processing

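With library totals in place of TMM, 10564 genes were higher and 2996 lower in tumor. Of the 10 genes 9 were then higher and 0 lower, with Tead3 reversed to 0.44. In the kinase core 12 were higher and 1 lower, with Taok3 reversed to 0.31. Of the junction genes 1 was lower, of the Vgll genes 2 were higher, and of the AP-1 genes 3 were higher and 1 lower. These move with the shift of 0.863 in the median of all genes. With a fold of at least 2, 3887 genes were lower, 0 of the 10 genes were lower, and the kinase core held 1 higher and 1 lower. With no low-count filter 2 kinase core genes were lower; the cause was not tested. With counts per exon length, Tead2 held 53.7% and Tead4 8.03% of the TEAD sum in tumor, and Tead1 22.003%, Tead3 71.4% and Tead4 4.29% in small intestine.

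Leaving out single libraries kept 7 of the 10 genes higher and 2 lower each time. The kinase core had 3 to 6 lower, with 3 without tumor replicate 1 and without tumor replicate 4. Without small intestine replicate 4 the Vgll genes had 2 higher and the AP-1 genes 2 higher, over ranges of 1 to 2 each. In FPKM 0 to 1 of the genes were lower, with 1 (Lats2, -0.40) without small intestine replicate 3.

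Deviations of same-numbered libraries correlated at -0.159 to 0.0136, and those of other pairs at -0.0803 to 0.137. These values cannot show whether same-numbered libraries come from the same animal, which the labels do not say. With the replicate block Amotl2 was called at 0.36 (edgeR adjusted p = 0.0483), and 4 kinase core genes were lower, against 5 without it. Over all genes 11893 were called with the block and 12649 without it. No other call of the 10 genes changed, and the counts of the other pathway lists did not move. At this depth Wwtr1 and Tead2 rest on 17 to 77 counts in each small intestine library.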
